A study of Mus musculus with 2 samples.

Results

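The Hist1 cluster of chromosome 13 holds most of the replication-dependent histone genes of the mouse. It was examined in mouse embryonic stem (ES) cells sorted by flow cytometry for the fluorescent reporter 2C::tomato. The cluster was taken as the 2 spans chr13:21800001-22140000 and chr13:23500001-23870000 (mm9), of 340 and 370 kb. Its members are the covered blocks in these spans, which are unbroken stretches with reads in at least 1 library, that held 20 or more read equivalents (depth times length divided by 72) in both libraries together. There were 65 such blocks, 30 in the first part and 35 in the second, out of 103461 blocks with the same minimum in the genome. A further 311 blocks of the spans fell below the minimum and held 332 alignments in reporter-positive cells and 241 in reporter-negative cells. The thinnest members held 24 and 27 alignments, and the deepest blocks left out held 14 each.

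Both libraries came from ES cells of a mixed strain background with floxed Kdm1a alleles (Kdm1a FL/FL) and a CreERT transgene, grown on gelatin with 150 ug/ml hygromycin. Kdm1a encodes the histone demethylase LSD1, and the labels record no induction of Cre. The 2C::tomato+ library is from cells with an active reporter and the 2C::tomato- library from cells without it. The reporter is under the control of a MuERV-L element, an endogenous retrovirus that is active in the embryo after its first division. The libraries held 37059813 and 33833215 alignments. The question was how transcripts differ between reporter-positive and reporter-negative cells of the same background. With 1 library for each population, no difference below has a replicate check and no p-value is given, and population and library cannot be told apart. In such bulk samples fewer cells of a type and less RNA per cell cannot be told apart either. Each ratio is the share of alignments in the positive library over that in the other. Its 95% exact conditional binomial (Clopper-Pearson) interval covers counting error only.

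Replication-dependent histone genes supply the core histones H2A, H2B, H3 and H4 and the linker histone H1 that package newly copied DNA. Their transcripts accumulate while DNA is copied. They carry no introns and end in a conserved stem-loop in place of a poly(A) tail, so libraries made by poly(A) capture hold few of them. The libraries here were made with an Illumina mRNA kit. What part of the histone RNA they hold was not tested. Many core histone genes of a class share long identical stretches, and H2A and H2B genes often lie head to head around a shared promoter.

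The copies matter for most values here, because the same pattern of alignment starts recurs at several places of the tracks, as it does where a read is listed at more than 1 matching place. The aligner's setting for such reads is not given in the sources used here. The following coding stretches of 72 bases, the length of an alignment, are those found in the most cluster genes of their class in the GENCODE M21 transcripts, and are shown because reads from them cannot be given to 1 gene. Capitals mark the bases that differ in the nearest transcript of the class without the exact stretch.
H2A (Hist1h2ab): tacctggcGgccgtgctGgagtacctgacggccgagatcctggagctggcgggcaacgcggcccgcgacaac
H2B (Hist1h2ba): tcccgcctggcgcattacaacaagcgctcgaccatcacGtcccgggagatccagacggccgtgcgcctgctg
H3 (Hist1h3a): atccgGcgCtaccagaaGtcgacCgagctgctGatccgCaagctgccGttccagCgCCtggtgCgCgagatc
H4 (Hist1h4a): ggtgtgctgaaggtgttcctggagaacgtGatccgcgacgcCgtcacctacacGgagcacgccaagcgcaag

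The H2A stretch occurred in 12 cluster genes and differed at 2 bases from Hist1h2ak, another H2A gene of the cluster. The H2B stretch occurred in 13 genes and was 1 base away from Hist1h2be. All 9 H3 genes of the cluster held the H3 stretch, as did 3 H3 genes elsewhere, and the replacement variant gene H3f3b was the nearest without it, at 12 bases. All 11 H4 genes of the cluster held the H4 stretch, and Hist2h4, an H4 gene outside the cluster, was 3 bases away.

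The histone stem-loop was searched on the sense strand past the longest reading frame, as GG, any pair of bases, CTT, any base, T, any base, AG, any pair of bases and CC. It is shown because it stands where other messenger RNAs have a poly(A) tail. These letters were found in 37 of 55 cluster genes with a transcript, 42 of which have at least 30 annotated bases past the frame. Over all 55341 genes of the annotation, 0.363% held the letters anywhere in a transcript. The 3 forms below are those in the most genes, with the loop in capitals.
ggctct form: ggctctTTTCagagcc
ggccct form: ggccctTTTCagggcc
second ggctct form: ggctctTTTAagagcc

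The first form was in 20 genes, of the H1, H2A, H2B and H3 classes. The ggccct form was in 6 genes, all of them H4. The third was in 6 genes, of the H1, H2B and H3 classes. A further form was in 2 genes, both of them H4, and no H4 gene held the first form. In 17 of the 37 genes an annotated transcript runs more than 100 bases past the stem-loop.

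The blocks themselves fell into families. Blocks were joined where they shared a stretch of 64 bases with the same pattern of alignment starts in both libraries, which needs the same, or nearly the same, sequence over about 135 bases. The cluster held 5 such families with 49 of its 65 blocks and 90.6% of its alignments, of 13, 14, 9, 11 and 2 blocks. A search of the whole genome added only 1 block outside the spans, chr13:24025603-24025823, to the family of 14.

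Gene symbols could not be set on mm9 positions with the annotation at hand, which is of another build, so no block was assigned to a gene. The families are called by class below only because their numbers match those of the reference. RefSeq (GRCm38.p6) lists 56 histone genes in 2 groups, parted by 101 other genes. Of these, 2 are annotated as pseudogenes, Hist1h2aj in the first group and H2ac5-ps in the second, both of the H2A class, and they are counted here. For H4 it has 5 genes in the first group and 6 in the second, and for H3 it has 2 and 7. The family of 11 blocks has 5 and 6 and is called H4-like, and the family of 9 has 2 and 7 and is called H3-like. For H2A and for H2B it has 8 and 7 genes, of which 1 each (Hist1h2aa and Hist1h2ba, the testis-type pair) lies past a gap of 8 other genes. Of this pair only Hist1h2ba shares 72-base stretches with other genes of its class. The family of 14, with 8 and 6 blocks and the one beyond the spans, is called H2B-like. The family of 13, with 7 and 6 blocks, is called H2A-like. The H2A entries without the pseudogenes number 7 and 6, Hist1h2ak and Hist1h2aa included, so this name depends on how entries are counted. A further block, chr13:21845299-21845716, was as deep as the H2A-like blocks but shared no stretch with them, while in the reference Hist1h2ak is the single H2A gene besides Hist1h2aa that shares no 135-base stretch. The last family, a pair of blocks, is called H1-like on weaker grounds. Both blocks lie in the second part, where 5 of the 6 H1 genes are. Some H1 transcripts share a stretch of 135 bases, at most 2 genes for any 1 stretch. The match is not complete, since Hist1h2bm and Hist1h4d share no such stretch in the reference although every H2B-like and H4-like block was joined. Among H1 genes, Hist1h1c, Hist1h1d and Hist1h1e each share such a stretch with another, which is more genes than the pair has blocks.

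Position among neighbours was not used for the names, and it showed a fixed arrangement. H2A-like and H2B-like blocks lay less than 500 bases apart in 11 places, with gaps of 239 to 329 bases and a median of 262. In all 11 the families faced each other in the same relative orientation. The deep block chr13:21845299-21845716 lay 245 bases from an H2B-like block. The reference has 15 neighbouring H2A and H2B genes. In the first part an H2B-like, an H2A-like and an H4-like block stood as a mirror image of an H4-like, an H2A-like and an H2B-like block, with gaps of 258 and 796 bases on each side. Both H2B-like blocks of the mirror held 336 alignments in reporter-positive cells and 276 in reporter-negative cells, and both H2A-like blocks held 1066 and 1061. All alignments of these 4 blocks lay in repeated stretches.

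**Figure D1:**
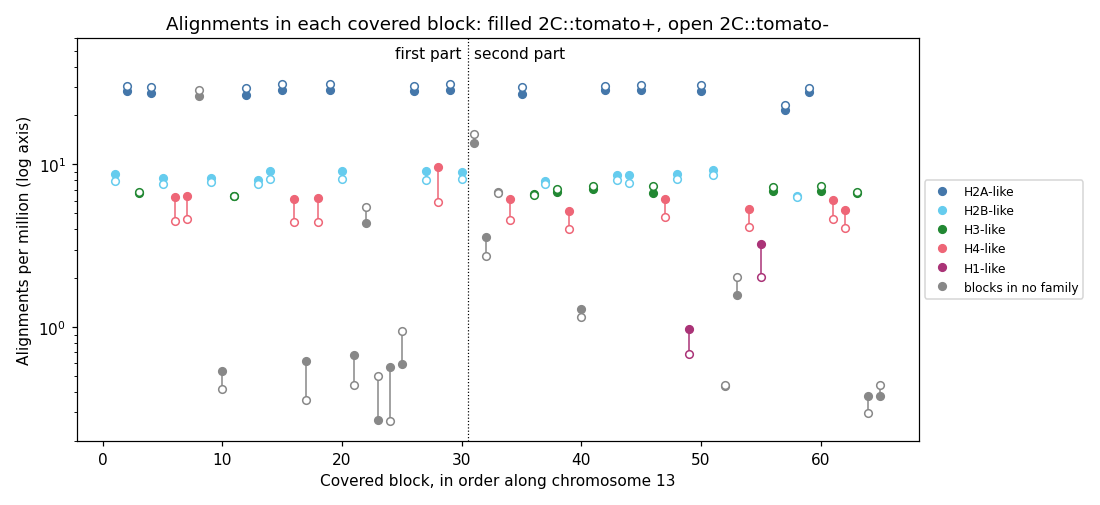
Level in RPM, which is alignments per 1000000 in the library (y, log axis), in the 65 covered blocks, in order along chromosome 13 (x), filled for 2C::tomato+ and open for 2C::tomato-, coloured by family. H2A-like blocks sit highest among the families, at medians of 28.1 and 30.5 RPM, the H1-like blocks lie apart at 3.24 and 0.971 RPM in 2C::tomato+, and the filled points of the 11 H4-like blocks all lie above the open ones.

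By listed alignments the cluster as a whole took up the same share of both libraries within counting error. It held 25256 alignments in reporter-positive cells (681 per 1000000 alignments, RPM) and 23254 in reporter-negative cells (687 RPM), a ratio of 0.992 (0.974 to 1.01). The H2A-like blocks alone listed 13272 and 13159 of these, many of them the same reads at several places, so this ratio rests largely on 1 family. Weighted by places the cluster ratio was 1.03 (0.994 to 1.06), and without repeated stretches it was 1.02 (0.982 to 1.06). The first part had a ratio of 0.994 (0.97 to 1.02) and the second part one of 0.989 (0.964 to 1.01). The ratio in the first part over that in the second was 1.01 (0.97 to 1.04), but the parts share repeated stretches and are not independent. Sequence between the parts and within 500 kb on each side had a ratio of 0.986 (0.966 to 1), and the cluster stood at 1.01 (0.98 to 1.03) times it. When each start position counted 1 time, the ratio of the cluster was 0.963 (0.934 to 0.992), and the median ratio of all blocks was then 0.975. Since reads can be listed at several places, counting intervals over many blocks are too narrow.

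No member block was at least 2-fold higher or lower in reporter-positive cells with an interval that excludes 1. Over all 103461 blocks with the same minimum, 3.22% were at least 2-fold higher and 1.7% at least 2-fold lower. Members were deeper than most of these, since 54 of 65 held at least 100 alignments, against 46558 of the 103461. With that minimum only 342 of the 46558 blocks were at least 2-fold higher and 99 at least 2-fold lower. At 1.5-fold, 2 members were higher and 0 were lower, against 5.31% and 3.68% of all blocks. Intervals lay above 1 in 13 members and below 1 in 7, which is 20% and 10.8% of 65, against 9.02% and 9.02% of all blocks. With a minimum of 100 alignments they were 24.1% and 13% of 54 members, against 11.6% and 14.6% of all such blocks. Of the 13 members above 1, 11 were H4-like, and of the 7 below 1, 5 were H2A-like. Blocks of a family share repeated stretches, so these are not separate observations. By start positions 2 members had an interval above 1 and 0 below. That is 3.08% and 0% of 65, against 3.32% and 2.81% of 90105 blocks with at least 20 positions in both libraries together. The median ratio of the members was 1.06, and that of all blocks was 1.

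The H4-like blocks were higher in reporter-positive cells by alignments, but not beyond counting error by start positions. H4 is the core histone that pairs with H3. The 11 blocks held 192 to 360 alignments in reporter-positive cells (median 227) and 135 to 198 in reporter-negative cells (median 153). Their ratios ran from 1.28 to 1.66 with a median of 1.34, and all 11 intervals lay above 1. Taken as a family with the mean count per block, so that a read listed at every block counts 1 time, there were 232 and 154 alignments, a ratio of 1.38 (1.12 to 1.7). When each start position counted 1 time, the mean block had 110 and 90 positions, a ratio of 1.06 (0.792 to 1.41). Of the 11 block intervals 10 then included 1, and 4 ratios lay below 1. A position counts 1 time however many alignments begin there, so a difference in alignments per position does not enter this count. The median ratio of all blocks was 0.975 when counted so. Of 7103 blocks in the genome with 327 to 558 alignments, the range of the H4-like blocks, 11.7% had an interval above 1, 13.3% had an interval below 1 and 3.83% had a ratio of at least 1.38.

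Within the family the block chr13:22132486-22133221 stood highest and longest, at 736 bases against a median of 401. It held 360 alignments in reporter-positive cells and 198 in reporter-negative cells, a ratio of 1.66 (1.39 to 1.98). Its repeated stretches had 195 and 131 alignments, a ratio of 1.36 (1.08 to 1.71), near that of the family. The rest had 165 and 67, a ratio of 2.24 (1.68 to 3.02). Without this block the family was at 1.34 (1.08 to 1.66).

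Alignments in no repeated stretch gave the H4-like family a larger ratio. There were 537 of them in reporter-positive cells and 293 in reporter-negative cells, a ratio of 1.67 (1.44 to 1.93), and 372 and 226 without the block just described, a ratio of 1.5 (1.27 to 1.78). Counted so, 3 of 56 members were at least 2-fold higher, against 3.17% of 98443 blocks, and all 3 were H4-like. Besides the long block these were chr13:21826950-21827323, at 2.06 (1.09 to 4.08) on 34 and 15 alignments, and chr13:21842037-21842389, at 2 (1.06 to 3.97) on 33 and 15, both named after their values were seen. Such alignments may still be listed at several places, since thin coverage defines no distinctive stretch. In the H4-like block of median coverage, chr13:21923682-21924116, 4 stretches of equal length had ratios of 1.16 (0.754 to 1.79), 1.3 (0.945 to 1.8), 2.06 (1.33 to 3.26) and 1 (0.387 to 2.64). Only stretch 3 had an interval that excludes 1, with 70 and 31 alignments.

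**Figure D2:**
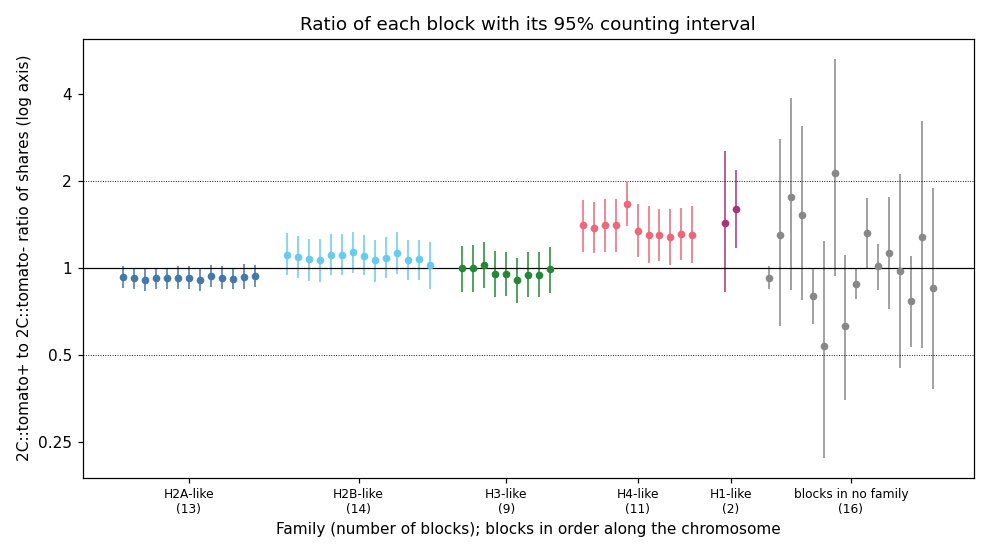
Ratio of the positive to the negative library (y, log axis) for each block with its 95% counting interval, grouped by family (x), with dotted lines at 2-fold. The H4-like blocks lie between 1.28 and 1.66 and the H2A-like blocks between 0.905 and 0.935, while thin blocks in no family scatter widely.

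H2A-like blocks were the deepest, and their ratios stood just below 1. H2A is the core histone that pairs with H2B. The 13 blocks held 805 to 1066 alignments in reporter-positive cells and 790 to 1061 in reporter-negative cells. In RPM per kb of block the median levels were 64.6 and 70.1, against 20.3 and 18.7 for H2B-like blocks. All 13 ratios were below 1, from 0.905 to 0.935, and 5 intervals excluded 1. These blocks share repeated stretches, so the 13 ratios are not separate observations. Of all blocks with at least 100 alignments, 14.6% had an interval below 1, and their median ratio was 0.989. The mean block had 1021 and 1012 alignments, a ratio of 0.921 (0.844 to 1.01), which includes 1. Weighted by places the family was at 0.927 (0.873 to 0.985), which excludes it. The deep block chr13:21845299-21845716 held 973 and 966, a ratio of 0.92 (0.84 to 1.01).

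Depth was uneven along the H2A-like block of median coverage, chr13:23775369-23775806. Of 4 stretches of equal length the first 2 held 327 and 556 alignments in reporter-positive cells and 324 and 557 in reporter-negative cells. The others held 90 and 67 in reporter-positive cells and 78 and 77 in reporter-negative cells. The ratio was 0.921 (0.788 to 1.08) and 0.911 (0.809 to 1.03) in the dense stretches. In the reference, 69 of 4403 stretches of 72 bases in H2A genes of the cluster (1.57%) also occur in histone genes elsewhere. These genes are H2afx, Hist2h2aa1, Hist2h2aa2 and Hist3h2a. At the longer stretch used for families, no block outside the spans was joined to the H2A-like family. Reads from the 72-base stretches found elsewhere may come from genes outside the cluster. H2afx, the gene of the variant H2A.X, gives a polyadenylated transcript besides one that ends in the stem-loop. Whether the dense stretches hold sequence found elsewhere was not tested, nor was the source of their reads.

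**Figure D3:**
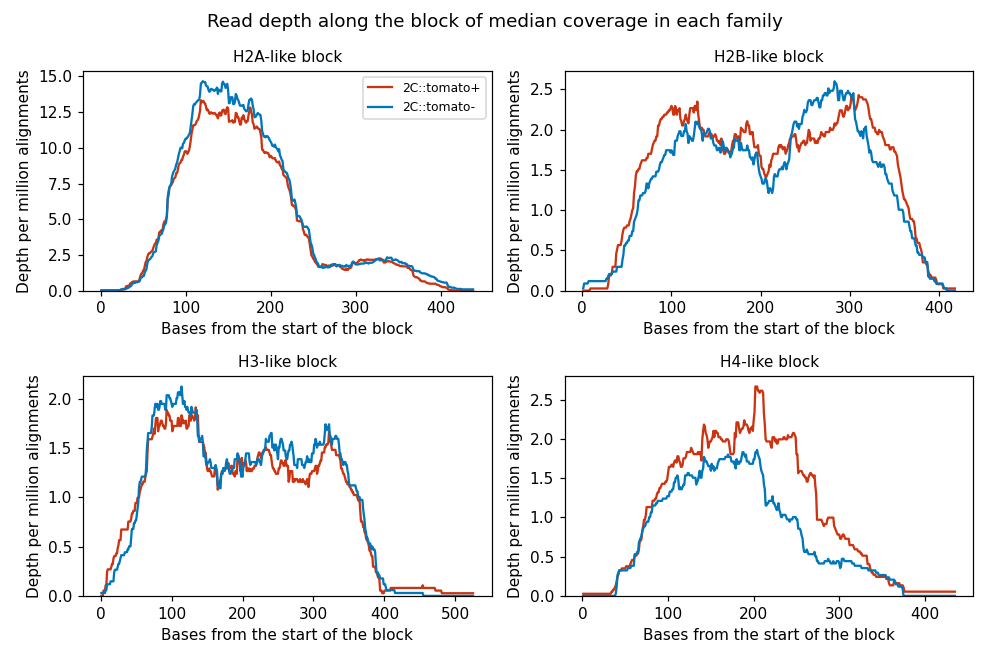
Read depth in RPM (y) by distance from the start of the block in bases (x) for the block of median coverage in the H2A-like, H2B-like, H3-like and H4-like families, red for 2C::tomato+ and blue for 2C::tomato-. The H2A-like block is dense over the first 2 of 4 equal stretches (556 and 557 alignments in the denser one), and the lines of the H4-like block part most in stretch 3 (70 and 31 alignments).

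H2B-like and H3-like blocks did not differ beyond counting error. The 14 H2B-like blocks held 237 to 341 alignments in reporter-positive cells and 212 to 292 in reporter-negative cells. Their ratios were all above 1, from 1.02 to 1.13, but each interval included 1, and so did that of the mean block with 315 and 265 alignments, 1.09 (0.919 to 1.28). The further block of the family beyond the spans, looked at after its values were seen, held 126 and 115, a ratio of 1 (0.771 to 1.3). H3 carries many of the modified lysines of the chromatin fibre, among them the one from which LSD1 removes methyl groups. The 9 H3-like blocks held 237 to 261 alignments in reporter-positive cells and 218 to 251 in reporter-negative cells. Their ratios ran from 0.906 to 1.02, and the mean block had 249 and 236, a ratio of 0.963 (0.803 to 1.16).

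The difference between families was measured directly for all 10 pairs. By mean counts per block the H4-like ratio was 1.43 (1.08 to 1.89) times the H3-like one, and the H2A-like ratio was 0.67 (0.533 to 0.84) times the H4-like one. The H2B-like ratio was 0.789 (0.602 to 1.03) times the H4-like one, an interval that includes 1. H2A-like and H3-like stood at 0.956 (0.78 to 1.17) and H2B-like and H2A-like at 1.18 (0.975 to 1.42). With alignments divided by how many places list them, the H2B-like ratio was 0.692 (0.608 to 0.788) times the H4-like one and 1.16 (1.05 to 1.28) times the H2A-like one, and both intervals then excluded 1. These intervals are too narrow, since reads without molecular identifiers are not independent and not all repeats are found.

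**Figure D4:**
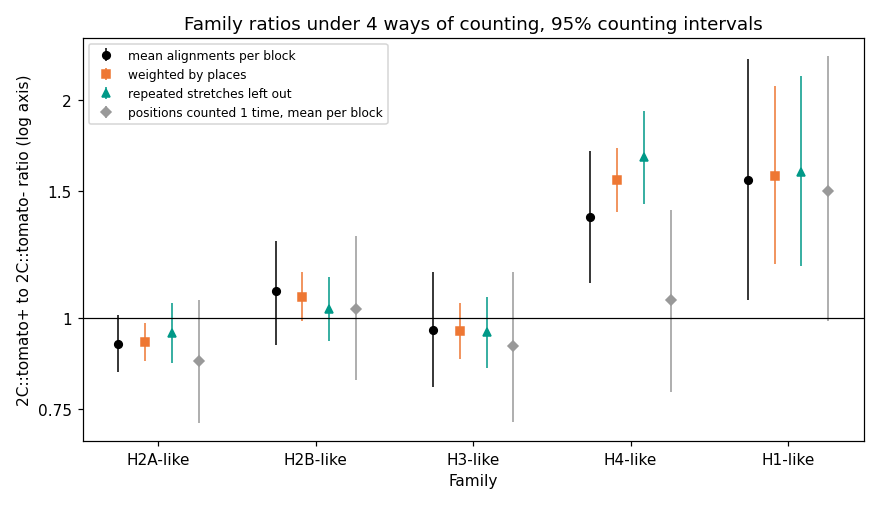
Ratio of the positive to the negative library (y, log axis) for each family (x) under 4 ways of counting, with 95% counting intervals. The H4-like family lies at 1.38, 1.55 and 1.67 by alignments but at 1.06 when start positions are counted, and the H2A-like, H2B-like and H3-like families stay between 0.872 and 1.09.

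The H1-like pair was higher in reporter-positive cells by alignments, at low depth. H1 binds the linker DNA between nucleosomes. The block chr13:23830689-23832187, 1499 bases long, held 120 alignments in reporter-positive cells and 69 in reporter-negative cells, a ratio of 1.59 (1.17 to 2.17), and 1.53 (1.1 to 2.16) by positions. Only 13.2% of its alignments lay in repeated stretches. Its partner chr13:23713677-23714326, named after its values were seen, held 36 and 23, a ratio of 1.43 (0.824 to 2.53). The mean of the pair was 78 and 46, which gives 1.55 (1.06 to 2.28), and weighted by places it was 1.57 (1.19 to 2.09). By start positions it was 1.5 (0.992 to 2.3), which includes 1. In RPM per kb of block the pair's median levels were 1.83 and 1.2, far under the core histone families. By mean counts per block the H3-like ratio was 0.623 (0.405 to 0.95) times that of the pair, and the H4-like ratio 0.889 (0.57 to 1.37) times.

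The 16 blocks in no family held 2288 and 2236 alignments, a ratio of 0.934 (0.881 to 0.991), which excludes 1, and by start positions 0.937 (0.857 to 1.02). Without the deep block chr13:21845299-21845716 the other 15 were mostly thin. Together they held 1315 alignments in reporter-positive cells and 1270 in reporter-negative cells, a ratio of 0.945 (0.874 to 1.02). Of them 10 held under 100 alignments, 8 had a ratio above 1, 1 an interval above 1 and 2 an interval below 1. The higher one was chr13:23514285-23514559, named after its values were seen, at 133 and 92 alignments, which gives 1.32 with a lower bound that rounds to 1. The lower ones were chr13:23513428-23514208, at 499 and 518 alignments, which gives 0.879 (0.776 to 0.996), and chr13:22050294-22052314, at 162 and 186, which gives 0.795 (0.64 to 0.987). The block chr13:23784694-23785184 held 58 and 69, a ratio of 0.767 (0.532 to 1.1). Between the histone genes the reference lists other protein-coding genes, 3 in the first group and 6 in the second, and such blocks need not be histone transcripts. Blocks under 100 alignments had wide intervals, and whether a difference of the H4-like size could be detected in them was not tested.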

How the data were processed

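Messenger RNA libraries were made with an Illumina mRNA kit from FACS-sorted ES cells, 1 per population, per the labels' protocols. As deposited, each library is a coverage track, whose signal is the number of aligned reads over each base, unscaled and without strand, made from a sorted BAM file per the file headers. Per the submitters' processing notes the authors used Bowtie and mm9. Version and settings: not given in the sources used here. Every track decoded into alignments of 72 bases (0 negative start counts), 37059813 for 2C::tomato+ and 33833215 for 2C::tomato-, so reads across splice junctions are missing. Repeated stretches (64 bases, at least 8 of them with starts, at least 20 starts) held 25.5% and 25.7% of the alignments, at up to 20 places.

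Ratios use each track's total. Weighted and mean counts were rounded to whole numbers. The size rule asks for 2-fold (or 1.5-fold) and an interval that excludes 1. Medians of ratios used log2 with a pseudocount of 0.5. Named blocks are the 25 with most alignments, any past 2-fold, and the 3 highest and 3 lowest ratios among those with at least 100 alignments; others are marked. The members and lists were chosen with earlier results of these data known, and the families after the data were seen. Alternatives changed the scaling, the counting of repeats and positions, the minimum (50, 100) and the joining of blocks less than 72 bases apart. Annotations are GENCODE M21 and RefSeq GRCm38.p6, used for names, order and sequence only. Markers of ES cells and the Kdm1a level were not analysed here. Python 3.11.15, numpy 2.4.6 and scipy 1.17.1 were used. The decoding and the counting intervals were tested on simulated data. Those counts were independent of each other, unlike reads listed at several places, and the fold cut of the size rule was not tested.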

Additional observations from a re-analysis of the deposited data

How the results depend on the processing

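No paired analysis was possible because only 1 library represents each sorted population, and no replicate could be left out. Scaling by the median ratio moved no value outside its interval. The ratio of both parts was 1.03 weighted by places, 1.02 without repeated stretches and 0.963 by positions, and the latter excluded 1 (0.934 to 0.992). The first part was at 1.04 weighted and 1.03 without repeats, and the second at 1.02, 1.01 and, by positions, 0.953. Against its flanks the cluster was at 0.972 by positions. Members at least 2-fold higher (0) became 1 weighted and 3 without repeats. Of all blocks 3171 of 101460 and 3121 of 98443 were so. Members at least 2-fold or 1.5-fold lower (0) became 1 and 1 with blocks joined, where 1419 and 3017 of all 90373 blocks were so. Members at least 1.5-fold higher (2) became 5 weighted, 5 without repeats and 1 by positions. Of all blocks 5253 of 101460, 5153 of 98443 and 2322 of 90105 were so. Intervals above 1 (13) became 7 without repeats, where 56 members met the minimum, and 2 by positions. Those below 1 (7) became 2 weighted, 2 without repeats and 0 by positions. Over all blocks the intervals above 1 were 8.65% without repeats and 3.32% by positions. The all-block shares below 1 were 8.47% weighted, 8.48% without repeats and 2.81% by positions. The H4-like family fell to 1.06 by positions. By positions 4 H4-like blocks, named after their values were seen, had a ratio below 1, each with an interval that includes 1. They were chr13:23622968-23623368 at 0.99 (0.738 to 1.33), chr13:23673451-23673859 at 0.926 (0.696 to 1.23), chr13:23789915-23790316 at 0.983 (0.72 to 1.34) and chr13:23848868-23849260 at 0.978 (0.73 to 1.31). The median ratio of all blocks was then 0.975. Of 251 recomputed block ratios, 222 stayed within their interval. The alternatives for families and that without the longest H4-like block were chosen after seeing the data. Depth limits blocks under 100 alignments, and no setting measures variation between libraries.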
